A study of Mus musculus with 15 samples.

Results

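Transcripts of 10 genes of the endoplasmic reticulum (ER) stress response were followed in hematopoietic stem cells (HSC) of 15 mice. The genes were Hspa5, Hsp90b1, Xbp1, Atf4, Atf6, Ddit3, Ern1, Eif2ak3, Calr and Pdia4. They were chosen by name for their place in this response, with earlier results of these data known, and all 10 were among the 16154 genes counted. By the labels the mice were female C57BL/6 and fell into 3 groups of 5: young (6 to 12 weeks), aged (20 to 24 months) and aged mice given nicotinamide riboside (NR), a precursor of NAD, for 2 months at 3 mg/ml in the drinking water. No transgene or mutation is given for any group. HSC were sorted from bone marrow depleted of lineage cells with antibodies to B220, Mac-1, Gr-1 and Ter119, on Sca-1, cKit, CD48 and CD150. Each library came from 20000 to 25000 cells of 1 mouse, and replicate numbers name mice within a group.

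The ER folds secreted and membrane proteins, and unfolded protein in its lumen is sensed by 3 membrane proteins. IRE1α, encoded by Ern1, splices Xbp1 mRNA so that it encodes an active transcription factor. PERK, encoded by Eif2ak3, phosphorylates eIF2α, which slows translation but favours that of Atf4, whose product induces Ddit3 (CHOP). ATF6 is cut in the Golgi to release a transcription factor, and with XBP1 it raises ER chaperones such as Hspa5 (BiP), Hsp90b1 (GRP94), Calr (calreticulin) and Pdia4. HSC are known for a low rate of protein synthesis and for sensitivity to unfolded protein. Counts per gene from 3′ biased libraries carry the level of a transcript only: splicing of Xbp1, phosphorylation, translation of Atf4 and cleavage of ATF6 are not in these values.

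Total counts were between 764119 and 13318989 per library, the extremes both being aged. All 10 listed HSC markers had counts in every library, and 5 of them were higher in aged than in young HSC, among them Ly6a (Sca-1) and Slamf1 (CD150) of the sort, while 1 was lower with NR, Slamf1. In spite of the female label, young replicates 1 and 5 held 4 Y-linked genes at a CPM (counts scaled to 1e6 per library) of 104 and 108, against at most 3.16 in the other 13 libraries. Young replicate 3 had the highest summed level of myeloid markers (7675 CPM, next 3027). Markers of mature cells moved with the groups: of 10 measured plasma cell markers 6 were higher in aged than in young HSC and 8 were lower in NR-treated than in aged HSC. Of 10 myeloid markers 0 were called with age, and 0 had an unadjusted p under 0.05, but apart from young replicate 3 every young library was below every aged one in their sum (medians 515 and 2608 CPM over all 5). With NR 9 of the 10 were lower. Of 8 erythroid markers the counts were 5 and 7. Of 5 B cell markers they were 0 and 2, and of 6 T and NK cell markers 1 and 1. The part of these cells in the results was not tested. In sorted cells measured as bulk, a larger share of another cell type and more RNA per cell cannot be told apart.

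Of the 10 genes, 4 differed between aged and young HSC at an adjusted p under 0.05 (edgeR quasi-likelihood test, Benjamini-Hochberg adjustment over all genes), where 19.3% of all genes did. Hsp90b1, Xbp1 and Pdia4 were higher in aged HSC, in which direction 9.68% of all genes were called, and Ern1 was lower, with 9.63% of all genes. Hsp90b1 and Xbp1 were lower again in NR-treated aged than in untreated aged HSC, where 8.07% of all genes were called, 4.18% lower and 3.88% higher. Against young HSC, NR-treated HSC differed in 1 member, Ern1, which was lower. Of all genes 4.47% were called there, 2.56% higher and 1.91% lower. Hspa5, Atf4, Atf6, Ddit3, Eif2ak3 and Calr passed the threshold in none of the 3 comparisons. The comparison with age and that with NR use the same 5 aged libraries and are not independent of each other. Without young replicates 1 and 5, which hold Y-linked transcripts, 1 of the 10 genes was called with age, Hsp90b1. Over all genes the calls with age fell from 3120 to 1862 in that setting. There Xbp1 was at a log2 fold change of 0.66 (adjusted p = 0.0549), Ern1 at -0.57 (adjusted p = 0.0598) and Pdia4 at 0.52 (adjusted p = 0.0649).

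**Figure D1:**
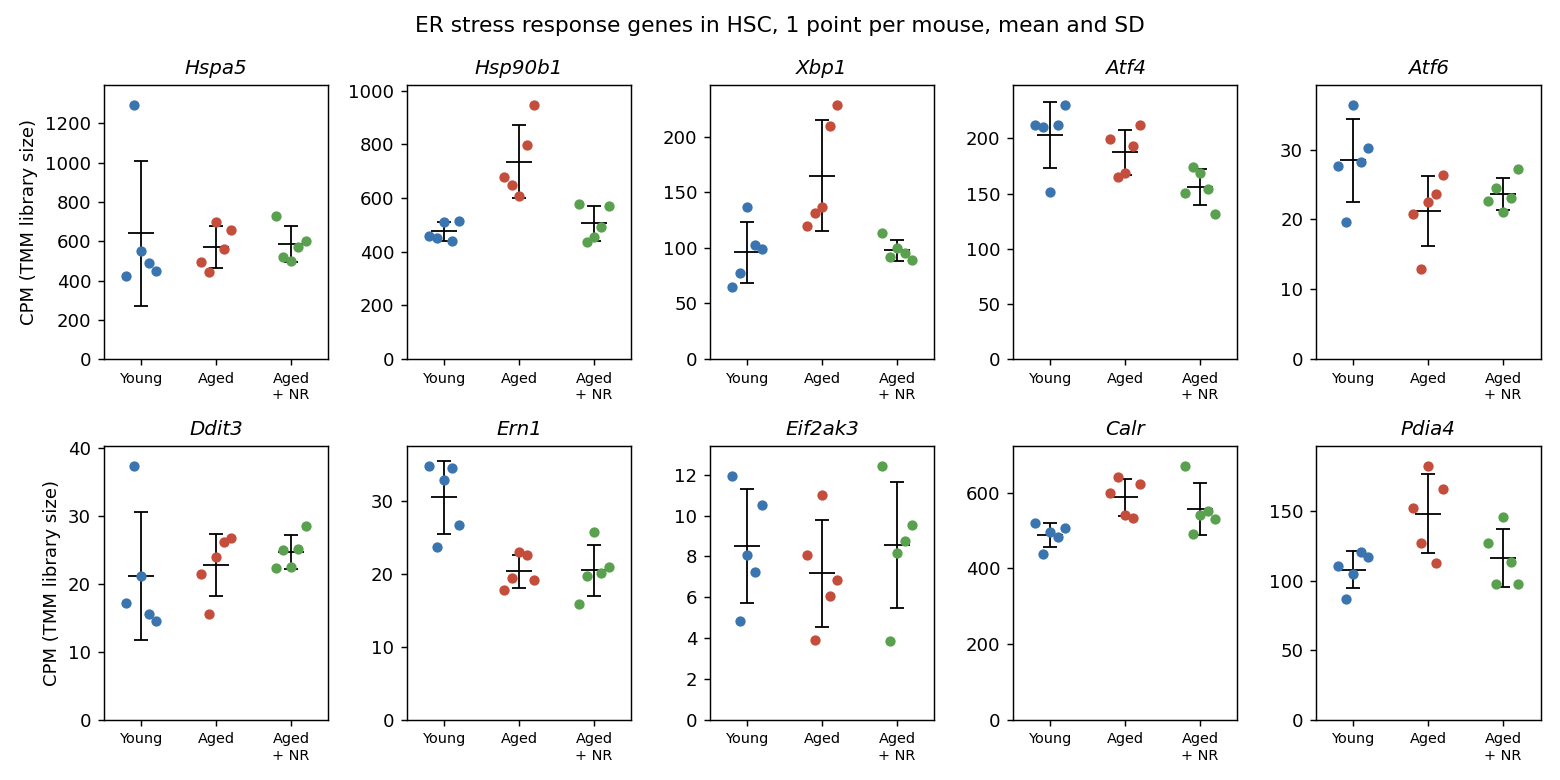
Level of each of the 10 genes in CPM (y axis, from 0, on the TMM library size) in the 5 young, 5 aged and 5 NR-treated aged libraries, with 1 point per mouse in replicate order and bars for the mean and SD. Hsp90b1 is at 609 or above in every aged library and at 579 or below in every other, while 1 young library stands at 1293 for Hspa5.

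**Figure D2:**
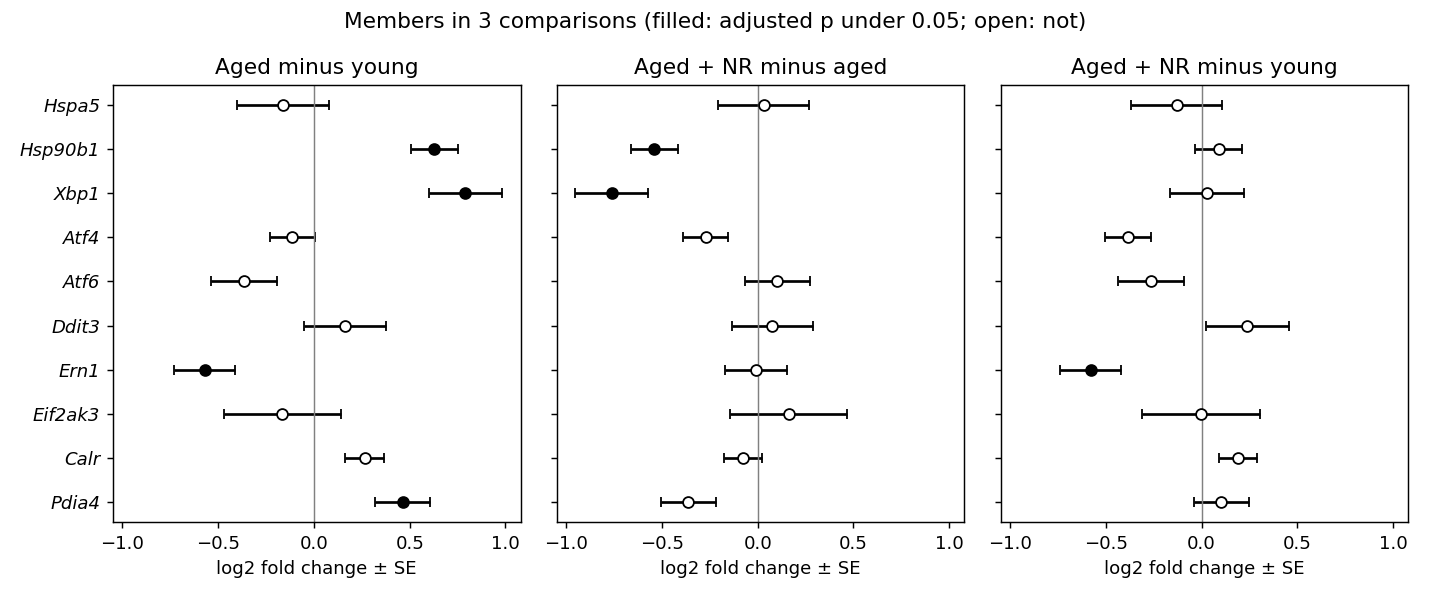
Log2 fold change with its SE (x axis) of the 10 genes (y axis) in aged minus young, NR-treated aged minus aged and NR-treated aged minus young HSC, with filled points for an adjusted p under 0.05. Hsp90b1 and Xbp1 have filled points on opposite sides of 0 in the panels for age and for NR, and Ern1 is filled in the panels for age and for NR-treated against young.

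Among the lumenal chaperones, Hsp90b1 changed most clearly. Hsp90b1 encodes GRP94, the ER member of the HSP90 family, which folds integrins and Toll-like receptors. Its level was 460.0, 452, 512, 439.7 and 515 CPM in young replicates 1 to 5. In aged HSC it was 678, 647, 609, 796 and 946 CPM, and in NR-treated HSC 579, 436, 455, 491 and 569 CPM. Every aged library was above every library of both other groups, which overlapped with each other. The mean was 1.55-fold higher in aged than in young HSC (log2 fold change 0.63 ± 0.12 SE, adjusted p = 0.00151, 5 libraries per group). NR-treated HSC were lower than aged HSC by a log2 fold change of -0.54 ± 0.12 (adjusted p = 0.0133) and differed from young HSC by 0.09 ± 0.12 (adjusted p = 0.765). Hsp90b1 lies at chr10:86690209-86705509 (GRCm38, minus strand, GENCODE M21) and shares exon sequence with 1810014B01Rik on the opposite strand, which was also counted. Whether the counting used strand is not given in the sources used here.

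Pdia4, an ER protein disulfide isomerase that forms and rearranges disulfide bonds, showed a smaller change. Pdia4 was at 110.5, 86.8, 105, 121 and 117 CPM in young HSC. Its levels were 152, 127, 182, 113 and 166 CPM in aged HSC and 127, 97.5, 145.5, 113 and 97.5 CPM in NR-treated HSC. The groups overlapped, since aged replicate 4 fell within the young range. The log2 fold change with age was 0.46 ± 0.14 (adjusted p = 0.028) and with NR it was -0.36 ± 0.14 (adjusted p = 0.118). The call with age was lost without aged replicate 3 (0.37, adjusted p = 0.0963), without aged replicate 5 (0.42, adjusted p = 0.0724) or without young replicate 2 (0.40, adjusted p = 0.0565). Pdia4 lies at chr6:47796141-47813430 (minus strand).

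Calr encodes calreticulin, a calcium-binding lectin chaperone of glycoproteins. Calr was at 519.7, 439, 495, 482 and 507 CPM in the young group and at 599, 641, 542, 533 and 624 CPM in aged HSC. The aged and young libraries did not overlap, yet the difference missed the adjusted threshold (0.27 ± 0.10, adjusted p = 0.0678). NR-treated libraries, at 671, 490.4, 542, 551 and 530.2 CPM, spanned the aged range. Calr lies at chr8:84841850-84846934 (minus strand). Separation of all libraries of both groups, as seen for Hsp90b1, Calr and Ern1, held for 12.4% of all genes between aged and young HSC. Between NR-treated and aged HSC it held for Hsp90b1 and Xbp1 and for 8.6% of all genes, and between NR-treated and young HSC for 0 of the 10 genes and 4.74% of all genes.

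Hspa5 encodes BiP, the HSP70 chaperone of the ER that also holds the sensors inactive. Hspa5, at chr2:34771970-34777547 (plus strand), was at 421, 1293, 551, 490.1 and 446 CPM in young HSC. It was at 493, 444, 698.5, 559.8 and 659 CPM in aged and 730.2, 518, 500.5, 571 and 603 CPM in NR-treated HSC. Young replicate 2 stood far above all other 14 libraries, and the remaining values of the 3 groups overlapped. The log2 fold changes were -0.16 ± 0.24 with age (adjusted p = 0.686), 0.03 ± 0.24 with NR (adjusted p = 0.955) and -0.13 ± 0.24 between NR-treated and young HSC (adjusted p = 0.831). Without young replicate 2 the sign with age turned, to 0.26 (adjusted p = 0.187). Hspa5 and Hsp90b1 are often read as a pair of chaperones under shared control, and in these libraries their deviations from the group means gave a Pearson r of 0.14 (Spearman 0.31, 15 libraries).

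The promoters of these chaperones are shown because the ER stress response element (ERSE), bound by NF-Y together with ATF6 or XBP1, is the best known link between them. ERSE was searched on both strands as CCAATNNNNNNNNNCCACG in windows from 250 bases before to 50 after each RefSeq transcript start (GRCm38.p6). Windows were found for 9 of the 10 genes, with none for Atf6. The exact letters occurred in Hspa5, Hsp90b1 and Calr, and in 0.119% of all 32851 windows. Below are the 250 bases before the start of each, 5′ to 3′ on the gene's strand, with the outer 5 bases at each end of the ERSE in capitals. Matches on the opposite strand read CGTGG first.
Hspa5 (chr2:34771840-34772089, plus strand): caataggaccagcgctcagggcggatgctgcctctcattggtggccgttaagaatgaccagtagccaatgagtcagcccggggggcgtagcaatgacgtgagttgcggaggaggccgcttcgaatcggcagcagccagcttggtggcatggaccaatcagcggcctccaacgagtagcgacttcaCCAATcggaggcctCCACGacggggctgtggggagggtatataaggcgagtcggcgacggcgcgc
Hsp90b1 (chr10:86705445-86705694, minus strand): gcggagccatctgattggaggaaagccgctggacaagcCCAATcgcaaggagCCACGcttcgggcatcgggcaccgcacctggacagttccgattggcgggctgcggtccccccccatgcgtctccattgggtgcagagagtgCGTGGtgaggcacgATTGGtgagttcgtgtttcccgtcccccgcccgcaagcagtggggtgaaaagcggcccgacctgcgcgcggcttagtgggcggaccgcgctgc
Calr (chr8:84846932-84847181, minus strand): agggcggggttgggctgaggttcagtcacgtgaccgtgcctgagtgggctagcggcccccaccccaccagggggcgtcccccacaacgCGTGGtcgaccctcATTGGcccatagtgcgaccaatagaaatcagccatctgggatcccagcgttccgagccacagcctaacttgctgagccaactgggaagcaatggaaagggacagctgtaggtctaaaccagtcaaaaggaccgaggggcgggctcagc
The Hspa5 match began 65 bases before the RefSeq start, on the gene's strand. For all 3 genes the GENCODE span given above begins inside the printed bases, for Hspa5 ahead of its match. These distances therefore hold for the RefSeq starts only. Hsp90b1 held 2 matches, from 212 bases before the start on the gene's strand and from 107 bases before it on the other. In Calr the match began 162 bases before the start, on the other strand. A match describes letters, not binding. All 3 genes hold ERSE letters, and with age 1 of them passed the threshold.

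The IRE1 branch held the other change shared by both comparisons. Xbp1, whose spliced form encodes a transcription factor for chaperones, ER-associated degradation and secretory growth, was at 64.6, 77.2, 136.5, 103 and 99.2 CPM in young HSC. In aged HSC it was at 119.8, 131, 136, 209 and 228 CPM, and in NR-treated HSC at 113, 92.1, 99.6, 95.0 and 89.0 CPM. Aged libraries lay above all NR-treated libraries, while young replicate 3 reached into the aged range. Xbp1 was 1.73-fold higher in aged than in young HSC (log2 fold change 0.79 ± 0.19, adjusted p = 0.00711) and lower with NR by -0.76 ± 0.19 (adjusted p = 0.0208). NR-treated and young HSC differed by 0.03 ± 0.19 (adjusted p = 0.964). The call with NR was lost without aged replicate 4 (-0.66, adjusted p = 0.053), aged replicate 5 (-0.62, adjusted p = 0.0683) or NR-treated replicate 4 (-0.75, adjusted p = 0.0542). Xbp1 lies at chr11:5520659-5525893 (plus strand).

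Ern1, which encodes IRE1α, the kinase and RNase that splices Xbp1 mRNA, went the other way with age. Ern1 was at 34.7, 23.7, 32.8, 34.5 and 26.7 CPM in young HSC and at 17.8, 19.5, 22.9, 22.6 and 19.1 CPM in aged HSC. With NR the levels were 15.8, 19.7, 25.7, 20.1 and 21.0 CPM. All aged libraries were below all young libraries, and NR-treated libraries covered the aged range with 1 above the lowest young value. Ern1 was lower in aged HSC (log2 fold change -0.57 ± 0.16, adjusted p = 0.0165) and in NR-treated HSC against young (-0.58 ± 0.16, adjusted p = 0.0414), while NR-treated and aged HSC differed by -0.01 ± 0.16 (adjusted p = 0.983). The call between NR-treated and young HSC was lost in 14 of 26 alternative settings. Ern1 lies at chr11:106394650-106487852 (minus strand).

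Plasma cells are known for very high Xbp1 and ER chaperones. Of their 10 measured markers 6 were higher with age and 8 lower with NR, the directions of Xbp1 and Hsp90b1. Between NR-treated and young HSC 3 of these markers were lower and 0 higher, where Xbp1 and Hsp90b1 were not called. Of 8 erythroid markers 5 were higher with age, 7 lower with NR and 5 lower in NR-treated than in young HSC. Of 12 listed plasma cell markers, Irf4 and Tnfrsf17 were not among the genes counted. The summed level of the 10 measured plasma cell markers was 37.8 to 710.4 CPM in young (median 134), 554 to 4544 CPM in aged (median 2457) and 26.8 to 119 CPM in NR-treated HSC (median 69.2). None of the 10 was at 0 in every library of a group. The sum was carried by the antibody chains Igkc, at a mean of 111 CPM in young, 2076 in aged and 36.3 in NR-treated HSC, and Ighm, at 89.0, 543 and 14.9 CPM. With age 8 of the 10 had a positive and 2 a negative log2 fold change, and the negative ones, Sdc1 (3.68 and 2.51 CPM in young and aged HSC) and Prdm1 (2.07 and 1.94 CPM), were not called. Within groups the order of the sums was that of the genes in some libraries and not in others. Aged replicate 4 had the second highest sum of its group, 4518 CPM, and the second highest Xbp1 and Hsp90b1, at 209 and 796 CPM. Young replicate 3 had the highest young sum, 710.4 CPM, with the highest young Xbp1, and NR-treated replicate 1 had the highest sum with NR, 119 CPM, with the highest Xbp1 and Hsp90b1. Aged replicate 5 had the lowest marker sum of its group, 554 CPM, and the highest Hsp90b1 and Xbp1, at 946 and 228 CPM. Aged replicate 3 had the highest sum, 4544 CPM, and the lowest aged Hsp90b1, at 609 CPM. Young replicate 1 had the second highest young sum, 164 CPM, and the lowest young Xbp1, at 64.6 CPM. Myeloid markers summed to 430 to 7675 CPM in young, 1898 to 3027 CPM in aged and 326 to 640 CPM in NR-treated HSC, and erythroid markers to 2294 to 4626, 5489 to 8954 and 1938 to 3050.0 CPM. No marker of these 2 lists was at 0 in every library of a group. The part of these cells in the group differences of Xbp1 and Hsp90b1 was not tested.

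**Figure D3:**
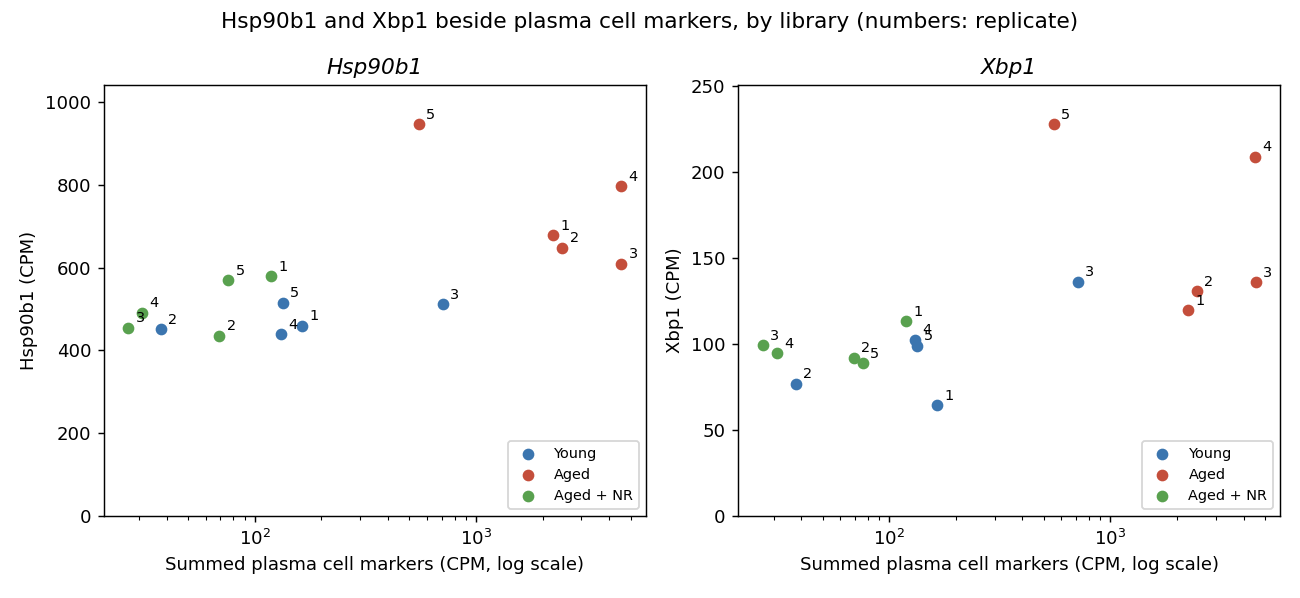
Hsp90b1 and Xbp1 in CPM (y axes, from 0) against the summed plasma cell markers in CPM (x axes, log scale) in each library, coloured by group and numbered by replicate. The aged libraries lie to the right, except that young replicate 3, at 710.4 CPM of markers, lies to the right of aged replicate 5. Aged replicate 4, at 4518 CPM of markers, is second highest for both genes and aged replicate 5, at 554 CPM, is highest.

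In the PERK branch, 0 of 3 members passed the threshold in the 3 comparisons. Eif2ak3, which encodes the kinase PERK, was the least counted member, with 3 to 130 counts per library. It was at 4.82 to 11.9 CPM in young, 3.89 to 10.99 CPM in aged and 3.88 to 12.4 CPM in NR-treated HSC, and all groups overlapped. Aged replicate 2, the shallowest library, had 3 counts, a number not told from absence. The log2 fold changes were -0.16 ± 0.31 with age (adjusted p = 0.758), 0.16 ± 0.30 with NR (adjusted p = 0.785) and -0.0032 ± 0.31 between NR-treated and young HSC (adjusted p = 0.998). A change as large as that of Ern1 with age would lie within 2 SE and was not detectable at this depth. Eif2ak3 lies at chr6:70844515-70905245 (plus strand) and shares exon sequence with Gm43292 on the opposite strand.

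Atf4, the transcription factor of amino acid supply and the integrated stress response, was at 213, 211, 151, 212 and 230.1 CPM in young HSC. It was at 199, 165, 168, 193 and 212 CPM in aged and at 151, 174, 169, 154 and 132 CPM in NR-treated HSC. Young replicate 3 stood below the other 4 young libraries, which all lay above all NR-treated libraries. The difference between NR-treated and young HSC was -0.38 ± 0.12 (adjusted p = 0.0708), and without young replicate 3 it was -0.47 and passed (adjusted p = 0.0154). With age Atf4 differed by -0.11 ± 0.12 (adjusted p = 0.545) and with NR by -0.27 ± 0.12 (adjusted p = 0.156). Atf4 lies at chr15:80255184-80257541 (plus strand).

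Ddit3 encodes CHOP, the factor tied to cell death under lasting ER stress. Its levels were 17.2, 37.4, 21.1, 15.6 and 14.6 CPM in young, 21.5, 15.6, 24.0, 26.1 and 26.7 CPM in aged and 22.3, 25.0, 22.6, 25.2 and 28.6 CPM in NR-treated HSC. Young replicate 2 was the highest of all 15 libraries, and the other 4 young libraries all lay below all NR-treated libraries. The log2 fold changes were 0.16 ± 0.22 with age (adjusted p = 0.647), 0.08 ± 0.21 with NR (adjusted p = 0.861) and 0.24 ± 0.22 between NR-treated and young HSC (adjusted p = 0.622). Without young replicate 2 the difference with age was 0.47 (adjusted p = 0.0555), and without young replicates 2 and 3, a setting chosen after their values were seen, it was 0.58 (adjusted p = 0.0291). Ddit3 lies at chr10:127290774-127296288 (plus strand) and shares exon sequence with Mars and Gm4189 on the opposite strand, both also counted.

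Atf6, the sensor that itself becomes a transcription factor, was at 27.7, 19.7, 36.4, 28.3 and 30.2 CPM in young HSC. It was at 20.8, 13.0, 22.5, 23.6 and 26.3 CPM in aged and at 22.6, 24.4, 21.0, 23.0 and 27.2 CPM in NR-treated HSC. All young libraries but replicate 2 lay above all aged libraries. The difference with age was -0.36 ± 0.17 (adjusted p = 0.14) and, without young replicate 2, -0.47 (adjusted p = 0.0463). Differences with NR (0.10 ± 0.17, adjusted p = 0.75) and between NR-treated and young HSC (-0.26 ± 0.17, adjusted p = 0.459) missed the threshold. Atf6 lies at chr1:170704674-170867771 (minus strand).

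Young replicate 2 stood far above its group for a pair of members and was the lowest young library for 5 others. In that library Hspa5 was 2.71 times the mean of the other 4 young libraries (1293 against 477 CPM) and Ddit3 was 2.18 times it (37.4 against 17.1 CPM). Of the other genes of the pathway, Atf3, a transcription factor induced by ATF4 and by many other stresses, was 11.6 times the mean of the other 4 (22.5 against 1.95 CPM). Ppp1r15a, which encodes GADD34, the subunit that returns the phosphatase to eIF2α, was 1.83 times it (552.6 against 301 CPM). The other lumenal chaperones among the members did not share this: Hsp90b1 was at 0.938, Calr at 0.876 and Pdia4 at 0.767 times the mean of the other 4. Eif2ak3 was at 0.51, Atf6 at 0.642, Ern1 at 0.737, Xbp1 at 0.766 and Atf4 at 1.05 times it. Calr, Pdia4, Eif2ak3, Atf6 and Ern1 were lowest in this library of the young group. In this library 2 of 10 members and 3.26% of the other pathway genes stood far above the rest of their group (a gap to the next library of over 0.71 of the group's range), against 2.12% of all genes.

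**Figure D4:**
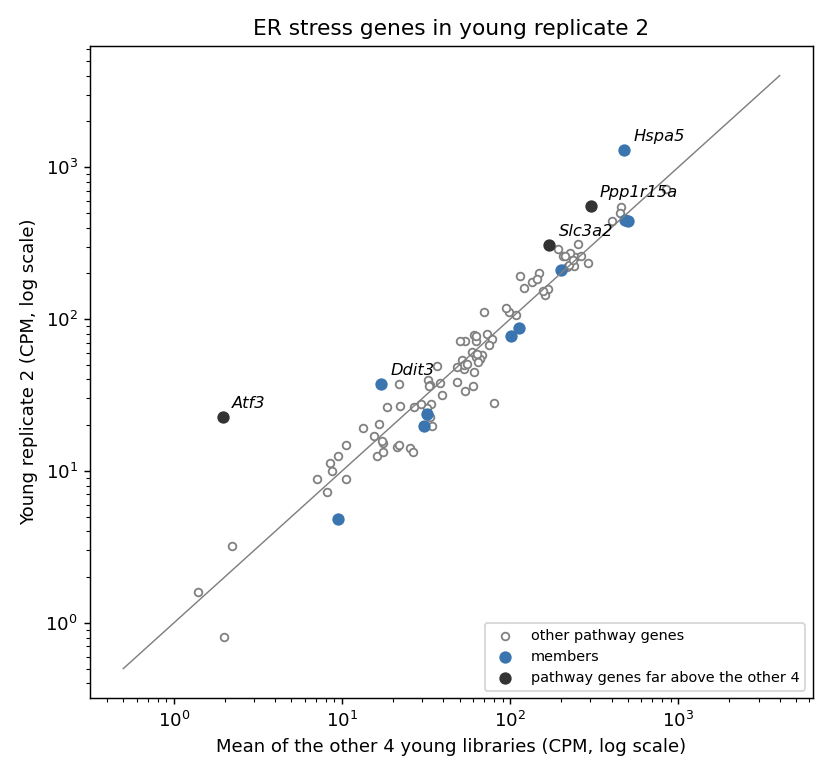
Level in young replicate 2 (y axis, CPM, log scale) against the mean of the other 4 young libraries (x axis, CPM, log scale) for the 10 members and 92 other pathway genes, with a line of equality. Hspa5, Ddit3, Ppp1r15a and Atf3 lie above the line, at 2.71, 2.18, 1.83 and 11.6 times the mean of the other 4, and Slc3a2 at 1.79 times it.

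Across all 15 libraries, Hspa5 and Ddit3 moved together within groups, with a Pearson r of 0.85 between their deviations from the group means (Spearman 0.79). Without the 2 libraries farthest from the median r was 0.80. Hsp90b1 and Xbp1 gave 0.65 (Spearman 0.54, 0.49 without 2 libraries), and Eif2ak3 and Pdia4 0.62 (Spearman 0.57). These were the highest of 45 pairs of members, and values of a pair share library, depth and scaling. Among the 7509 genes that averaged 20 CPM or more, those most like Hspa5 were Bhlhe40 (r = 0.93), Rab10os (0.92), Drg2 (0.91), Dnajb1 (0.90) and Cela1 (0.90). Without the 2 libraries, among them young replicate 2, these fell to between 0.72 and 0.81. Dnajb1 encodes a cytosolic HSP40 co-chaperone of the heat shock response. Those most like Atf4 were Ankib1 (0.95), Erlec1 (0.93), Gm26917 (0.82), Bcap29 (0.81) and E130308A19Rik (0.81), of which Erlec1 encodes a lectin of ER-associated degradation. Without the 2 libraries farthest from the median for Atf4, these fell to between 0.65 (Bcap29) and 0.91 (Ankib1). Those most like Xbp1 were Usp39 (0.94), Kat2a (0.90), Srp72 (0.89), Dnajb11 (0.89) and Mettl9 (0.89). Without the 2 libraries farthest from the median for Xbp1, these were between 0.80 (Srp72) and 0.94 (Usp39). Dnajb11 encodes an ER co-chaperone of BiP, and Srp72 a subunit of the signal recognition particle that targets proteins to the ER.

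Of the wider pathway, 95 genes in 4 lists were examined and 92 were measured. With age 20 were higher and 3 lower, 25.0% of the 92, beside the 19.3% of all genes given above, and their median log2 fold change was 0.19 where that of all genes was -0.03. With NR 1 was higher and 9 were lower, 10.9% of the 92, beside 8.07% of all genes. The median with NR was -0.18 against 0.02 for all genes. Between NR-treated and young HSC 3 were higher and 1 lower, 4.35% of the 92, near the 4.47% of all genes. The 10 calls with NR were 1 without aged replicate 3, NR-treated replicate 3 or NR-treated replicate 4, 2 without aged replicate 5 and 5 without NR-treated replicate 2. Over all genes the 1303 calls with NR fell in the same settings, in that order, to 422, 538, 534, 607 and 908. The counts also depended on scaling. With library totals in place of TMM, which moved the median of all genes from -0.03 to -0.16 with age and from 0.02 to 0.16 with NR, 14 were higher and 9 lower with age, and 4 were higher and 2 lower with NR.

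**Figure D5:**
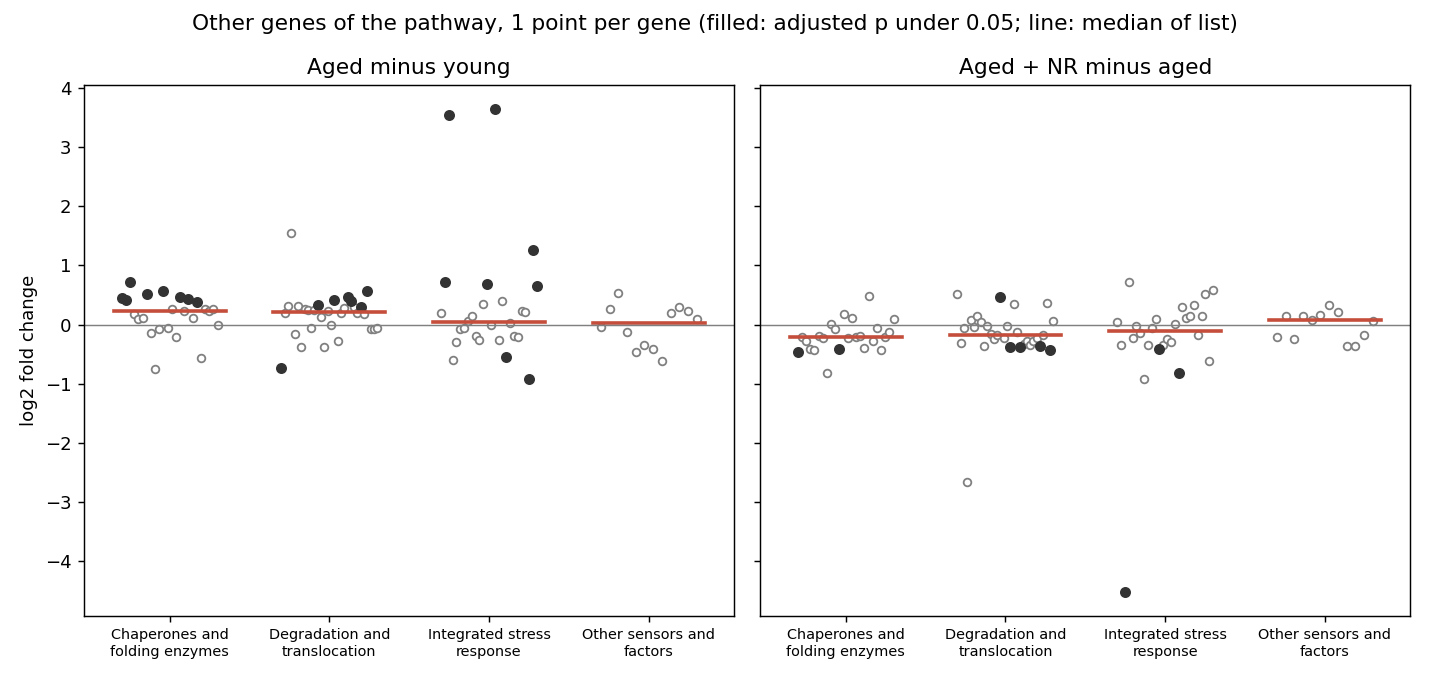
Log2 fold change (y axis) of each measured gene of the 4 lists (x axis) in aged minus young and NR-treated aged minus aged HSC, with filled points for an adjusted p under 0.05 and a line at each list's median. Filled points of the first 2 lists lie mostly above 0 with age and below 0 with NR, and the list of other sensors has none.

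ER chaperones and folding enzymes rose with age in 8 of 24 cases and fell in 0 (median log2 fold change 0.22). Of all genes 9.68% rose and 9.63% fell with age. Dnajc3, whose product p58IPK is a co-chaperone of BiP, rose from a mean of 165 to 236 CPM (0.52 ± 0.10, adjusted p = 0.00117). Erp44, a thiol oxidoreductase that retains proteins in the early secretory path, went from 73.8 to 111 CPM (0.58 ± 0.11, adjusted p = 0.00175), and Creld2, an ER stress-inducible gene, from 37.8 to 62.3 CPM (0.73 ± 0.15, adjusted p = 0.00281). All aged libraries lay above all young ones for these 3 genes. The others that rose were Canx, Cnpy2, Manf, Pdia3 and Pdia6. With NR 2 of 24 (8.33%) fell and 0 rose (median -0.21), beside 4.18% and 3.88% of all genes. Canx, the membrane lectin calnexin, went from 1118 CPM in aged to 814 CPM in NR-treated HSC (-0.46 ± 0.12, adjusted p = 0.0216), beside 816 CPM in young HSC. Erp44 fell to 83.0 CPM (-0.41 ± 0.11, adjusted p = 0.0344). Without aged replicate 3 neither passed (adjusted p = 0.0617 and 0.101). The call of Canx was lost in 5 of 26 settings, among them each of aged replicates 3 and 5 and NR-treated replicates 3 and 4 left out, and that of Erp44 in 12, among them each of aged replicates 2, 3 and 5 and NR-treated replicates 2 to 5 left out (highest adjusted p = 0.371, with thinned counts).

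Genes of ER-associated degradation and translocation rose with age in 6 of 30 cases and fell in 1. Called genes were 23.3% of the list, beside 19.3% of all genes. Those that rose were Ssr2 and Ssr4 of the translocon-associated complex, Sec62 of the translocon, and Spcs1, Spcs2 and Sec11a of the signal peptidase. Ssr4 rose from 266 to 394 CPM (0.57 ± 0.11, adjusted p = 0.000923), Sec62 from 475 to 634 CPM (0.42 ± 0.10, adjusted p = 0.00533) and Spcs1 from 144 to 198 CPM (0.47 ± 0.12, adjusted p = 0.0103). With NR 4 of 30 (13.3%) fell and 1 (3.33%) rose, beside 4.18% and 3.88% of all genes. Sec62 fell to 487 CPM (-0.38 ± 0.10, adjusted p = 0.0216), and Ssr3 fell as well. Ube2j1, an ER-bound ubiquitin-conjugating enzyme, and Selenos, which anchors the p97 ATPase to the ER, were lower by log2 fold changes of -0.42 ± 0.12 (adjusted p = 0.0428) and -0.37 ± 0.11 (adjusted p = 0.0435). Sec61a1, the pore of the translocon, rose from 44.6 to 61.4 CPM (0.47 ± 0.13, adjusted p = 0.0322), against the direction of Sec62. With NR, the call of Ube2j1 was lost in 15 of 26 settings (highest adjusted p = 0.215), of Selenos in 14 (0.174), of Sec61a1 in 7 (0.0955) and of Sec62 in 6 (0.1). Leaving out aged replicate 3, aged replicate 5, NR-treated replicate 3 or NR-treated replicate 4 ended the call of each of the 4 genes. Spcs1 shares exon sequence with Glt8d1, and Sec62 with 4933429H19Rik, on opposite strands.

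Of the integrated stress response genes, 6 of 26 (23.1%) rose with age and 2 (7.69%) fell, beside 9.68% and 9.63% of all genes. Nupr1, a stress-induced chromatin protein and ATF4 target, had the largest called rise of the 4 lists, from 31.2 to 71.1 CPM in young libraries to 536 to 801 CPM in aged ones (12.5-fold; log2 fold change 3.64 ± 0.17, adjusted p = 1.64e-11). It stayed high with NR, at 475 to 603 CPM (-0.29 ± 0.15 against aged, adjusted p = 0.247). Trib3, a pseudokinase induced by ATF4 and CHOP, went from a mean of 15.3 to 36.7 CPM (1.27 ± 0.20, adjusted p = 0.000182) and Asns, asparagine synthetase, from 39.3 to 64.7 CPM (0.73 ± 0.13, adjusted p = 0.001). Vldlr, Eif4ebp1 and Atf3 were the others that rose, Atf3 by 3.55 ± 1.02 (adjusted p = 0.0202) with 1 aged library far above the other 4. Another ATF4 target, the large neutral amino acid carrier Slc7a5, fell from 16.9 to 8.38 CPM (-0.92 ± 0.25, adjusted p = 0.0142). Ppp1r15b, the constitutive partner of the eIF2α phosphatase, was at 31.1 to 42.3 CPM in aged and at 45.0 to 65.1 CPM in young libraries, with no overlap (-0.55 ± 0.12, adjusted p = 0.00375). Atf4 itself did not pass, as given above.

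With NR, 3 of 26 integrated stress response genes (11.5%) fell and 0 rose, beside 4.18% and 3.88% of all genes. Ppp1r15a, the stress-induced partner of the same phosphatase, was at 426, 380.1, 627, 442 and 448 CPM in aged and 232, 333, 272, 233 and 250.2 CPM in NR-treated HSC. No library overlapped (-0.82 ± 0.18, adjusted p = 0.0112). Ppp1r15a shares exon sequence with Tulp2 on the opposite strand. Eif2s1, which encodes eIF2α, went from 282 to 212 CPM (-0.41 ± 0.12, adjusted p = 0.0457), a call lost in 13 of 26 settings, among them each of aged replicates 3, 4 and 5 and NR-treated replicates 2, 3 and 4 left out (highest adjusted p = 0.203, with thinned counts). Atf3 was at 286.1 CPM in aged replicate 3 and at 2.60 to 16.7 CPM in the other aged libraries, beside 1.63 to 5.96 CPM with NR. Its log2 fold change of -4.51 ± 1.097 (adjusted p = 0.0188) became -1.52 without aged replicate 3 (adjusted p = 0.228), and its call was also lost without NR-treated replicate 3 (adjusted p = 0.0518) or 4 (adjusted p = 0.0524). Of the 12 other sensors, proteases and transcription factors measured, 0 passed the edgeR test in any comparison, with 3, 2 and 0 at an unadjusted p under 0.05 for age, for NR and for NR-treated against young HSC.

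Of the 92 genes, Canx, Erp44, Sec62 and Atf3 were called both higher with age and lower with NR, as Hsp90b1 and Xbp1 were among the 10 members. Without aged replicate 3 all 4 of these genes lost the call with NR (adjusted p = 0.0617, 0.101, 0.0659 and 0.228). Calls with NR over all genes fell there from 1303 to 422. Exact ERSE letters were found in 9 of the 84 members and pathway genes with a window, and in 37 genes in all. Derl3 and Syvn1 of the lists also hold the letters, were not called with age and are not shown. For 4 that rose with age and hold the letters, the element is shown with 20 bases on either side, to set beside Hspa5, Hsp90b1 and Calr.
Canx (chr11:50325780-50325838, minus strand): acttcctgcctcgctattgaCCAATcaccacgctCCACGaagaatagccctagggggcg
Creld2 (chr15:88819500-88819558, plus strand): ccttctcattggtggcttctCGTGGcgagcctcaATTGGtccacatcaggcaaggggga
Dnajc3 (chr14:118937807-118937865, plus strand): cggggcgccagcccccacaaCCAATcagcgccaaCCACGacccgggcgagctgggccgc
Pdia6 (chr12:17266471-17266529, plus strand): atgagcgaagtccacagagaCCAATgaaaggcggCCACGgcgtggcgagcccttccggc
Of the 37 genes, 18 were measured in these libraries, and 7 of them (38.9%) were higher in aged than in young HSC while 1 was lower. Over all genes 9.68% were higher and 9.63% lower with age. Of the 18 measured genes, 9 are members or on the lists, which were chosen with earlier results of these data known. The 7 were Canx, Creld2, Dnajc3, Hsp90b1, Pdia6, Spats2l and Tdrd9, of which the last pair are outside the lists. With NR 0 of the 18 were higher and 2 lower, Canx and Hsp90b1, beside 3.88% of all genes higher and 4.18% lower. The UPR element TGACGTGG was found in 0.676% of windows and in 0 members, ERSE-II (ATTGGNCCACG) in 0.0365% and 0 members, and the ATF4 element TGATGNAA in 3.97% and 0 members. Of 281 measured genes with the ATF4 element 12.1% were higher and 8.19% lower with age, near the shares of all genes (9.68% and 9.63%). With NR 3.2% of them were higher and 6.41% lower, beside 3.88% and 4.18% of all genes. Between NR-treated and young HSC 5.69% were higher and 1.42% lower, beside 2.56% and 1.91% of all genes. Over all windows 2 ERSE matches overlapped a match of another of these elements. Absence of the exact letters from a window says nothing about the factors that bind there.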

How the data were processed

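RNA of sorted HSC was sequenced in 3′ biased libraries with a 10 bp unique molecular identifier (UMI). The authors aligned reads to GRCm38 with STAR 2.4.2a, removed reads with duplicated UMIs and counted the rest on GENCODE exons with featureCounts, and the deposited values are unnormalised counts per gene for 16154 genes. Genes had to exceed 5 reads and 2 CPM in at least 2 samples.

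Differences were tested with edgeR 4.0.16 in R 4.3.3, using TMM library sizes and the quasi-likelihood test, in a single fit of the 15 libraries by group. Adjustment was by Benjamini-Hochberg across the whole table, and a gene was called at an adjusted p under 0.05. The study used the likelihood ratio test, which was an alternative here. The SE is the log2 fold change divided by the root of F. CPM use TMM sizes, except for Y-linked genes, which use library totals. Levels were not compared between genes. Up to 3 counts were read as possible absence, which covers counting error only. Counts were simulated for aged against young over 16154 genes, 200 of them altered 2-fold, and the test recovered 150 (75.0%) with 3 false calls. The altered genes were drawn only from those above a minimum mean count. The share therefore does not hold for smaller changes or for genes of lower count.

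Members and lists were chosen with earlier results of these data known, so lists are given by counts and medians beside all genes, with no list test. Genes named with values are all members and, from each list, comparison (age, NR) and direction, up to 3 called genes of smallest adjusted p. Others were named after their values were seen, to complete a count or show a promoter, as were the libraries left out together (young replicates 2 and 3). Some counted genes are not reported here by name. Likeness is the Pearson r of log2 CPM (prior count 2) deviations from group means.

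No 2 libraries of a group were copies, with a chi-square per degree of freedom of at least 3.0. Positions are from GENCODE M21, a later release than the one counted on, and promoters from RefSeq. Alternatives were the likelihood ratio test, DESeq2 1.42.0, limma-voom 3.58.1, library totals, DESeq2's size factors, fits of only 2 groups, at least 10 counts in every library, thinned counts, the replicate block, and libraries left out. Python 3.11.15 was used for other steps.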

Additional observations from a re-analysis of the deposited data

Results flagged for a closer look

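Of the members and named genes, 11 library values lay far from the other 4 of their group, by a gap of over 0.71 of the group's range. About 1 in 20 groups of normally distributed values would show this without any cause, and no cause was tested. In these data the share of all genes so placed was 0.0681% to 4.36% for each single library and side (highest or lowest). The 1 in 20 holds for a whole group of 5 and both sides, so these shares are not to be compared with it. In young replicate 2, Hspa5 was at 1293 CPM (next 550.6), Ddit3 at 37.37 CPM (next 21.11), Ppp1r15a at 552.6 CPM (next 322.3) and Atf3 at 22.5 CPM (next 2.245). In young replicate 3, Atf4 was lowest at 151.3 CPM (next 210.6). In aged replicate 3, the deepest library, Spcs1 was at 230.6 CPM (next 193.4), Ppp1r15a at 627.0 CPM (next 447.9) and Atf3 at 286.1 CPM (next 16.67). In aged replicate 2, the shallowest library, Ppp1r15b was lowest at 31.14 CPM (next 39.56). With NR, Ube2j1 was lowest in replicate 3 at 27.22 CPM (next 37.56), and Atf3 was highest in replicate 2 at 5.962 CPM (next 2.557).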

How the results depend on the processing

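Of 51 fold changes of single genes, 28 were called, and under 26 alternative settings 11 of the 28 kept direction and call throughout, among them Hsp90b1 in both comparisons and Nupr1 with age. 0 of the 28 changed sign in any setting. Depth limits Eif2ak3, Ddit3, Atf6 and Ern1 most, with as few as 3, 12, 10 and 15 counts in the shallowest aged library. Where a value moved, the cause was not tested.

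Members called with age numbered 4, 5 with DESeq2 (Calr added), 1 without young libraries 1 and 5, and 3 to 4 with 1 library left out. Atf6 was called in place of Pdia4 with library totals or without young replicate 2. Ddit3 was called in place of Pdia4 without young libraries 2 and 3. With NR the members called numbered 2, and 1 to 2 with 1 library left out. Between NR-treated and young HSC they numbered 1, 2 with DESeq2 (Atf4 added), 0 with thinned counts, limma-voom, only 2 groups, the replicate block or without young libraries 1 and 5, 3 without young libraries 2 and 3, and 0 to 1 with 1 library left out.

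Pathway genes called with age numbered 23, 15 without young libraries 1 and 5, and 15 to 27 with 1 library left out. With NR they numbered 10, 3 with thinned counts, 6 with at least 10 counts in every library, library totals or without young libraries 1 and 5, 5 with the replicate block, and 1 to 13 with 1 library left out. Between NR-treated and young HSC they numbered 4, 7 with DESeq2, 2 with thinned counts or only 2 groups, and 2 to 6 with 1 library left out.

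Over all genes, calls with age numbered 3120, 1541 with thinned counts, 1862 without young libraries 1 and 5, and 1953 to 3533 with 1 library left out. With NR they numbered 1303, 402 with thinned counts, 783 with at least 10 counts (fewer genes tested), and 422 to 1535 with 1 library left out. Between NR-treated and young HSC they numbered 722, 414 with thinned counts, and 452 to 922 with 1 library left out. Library totals moved the share of calls that were higher from 50.1% to 29.1% with age and from 48.1% to 78.4% with NR. The replicate block changed no other call of a member than that of Ern1 between NR-treated and young HSC (-0.58, adjusted p = 0.0524), and gave 4 members with age and 2 with NR. Libraries of 1 number share only that number: between them, the mean correlation of deviations was -0.000672 (-0.21 to 0.209), and 5 of 15 libraries correlated best with one of their own number.

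Fold changes that turned sign were all uncalled. With age, Hspa5 turned without young libraries 2 and 3 (0.34) and lay between -0.28 and 0.26 with 1 library left out, the positive value being that without young replicate 2. Without young libraries 1 and 5, Ddit3 (-0.069) and Eif2ak3 (0.19) turned. With NR and 1 library left out, Hspa5 lay between -0.051 and 0.12, Eif2ak3 between -0.0068 and 0.38 and Ern1 between -0.099 and 0.084. Ern1 with NR also turned with DESeq2 (0.002), its size factors (0.0082), thinned counts (0.21), at least 10 counts (0.067), library totals (0.14) and the replicate block (0.017), and Calr with library totals (0.052). Between NR-treated and young HSC, Hspa5 turned with limma-voom (0.007) and without young libraries 2 and 3 (0.37), as did Pdia4 in the last setting (-0.0007). Without young libraries 1 and 5, Xbp1 (-0.11) and Eif2ak3 (0.35) turned. With 1 library left out, Hspa5 lay between -0.25 and 0.29, Xbp1 between -0.085 and 0.18 and Eif2ak3 between -0.18 and 0.18.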
